A study of Mus musculus with 8 samples.

Results

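The stretch of mouse chromosome 17 between Cdkn1a and Rab44 carried a cluster of short H3K9me3 peaks in mouse embryonic fibroblasts, with 11 peaks listed in wild-type cells and 3 in Peg3 knockout cells. The members are all rows of the 4 deposited peak tables that overlap the RefSeq bodies of either gene, the stretch between them, or 10 kb on either side (mm10, chr17:29080979-29158980, 78002 bp). This rule found 14 of 581 listed peaks, all 14 of them H3K9me3 peaks, since the PEG3 antibody tables held 0 peaks there in either genotype. The window was picked for its dense H3K9me3 peaks and for their larger number in wild type, so those numbers are a description and no test was made on them.

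Cdkn1a encodes p21, an inhibitor of cyclin-dependent kinases that halts the cell cycle and is a classic target of the tumour suppressor p53. Rab44 encodes a large member of the Rab family of small GTPases, which direct membrane traffic. Trimethylation of histone H3 at lysine 9 (H3K9me3) marks silent chromatin, above all repeats and compacted regions that are poor in active genes. Peg3 is an imprinted gene that is expressed from the paternal copy and encodes a zinc finger protein that binds DNA.

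The assay was ChIP-seq, the sequencing of DNA pulled down with chromatin by an antibody, on fibroblasts of the C57BL/6 strain, taken from embryos 14.5 days post coitum. The 4 groups were wild-type and Peg3 knockout cells, each with an antibody against PEG3 and with one against H3K9me3, and every group had 1 library. The knockout allele and the number of embryos behind a library are not given in the sources used here, and the peak lists hold no expression values with which to check the cell type. After the authors kept 1 tag (aligned read) per position, the H3K9me3 libraries held 26295696 tags in wild type and 27289192 in knockout, and the inputs of the same genotypes, sequenced without an antibody, held 24305045 and 26470256. The targeted gene itself gave no check of the genotype, because the PEG3 antibody tables list 13 peaks within Peg3 for wild-type cells and 19 for knockout cells. Each group being a single library, differences between wild type and knockout cannot be set against replicate error. All intervals below are 95% intervals for counting error alone, and reads without molecular identifiers are not independent molecules.

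The first question was where the H3K9me3 peaks lie relative to the genes. Cdkn1a occupies 29090979 to 29100722 and Rab44 29114128 to 29148980, and the 13405 bp between them hold no gene of the RefSeq table. All 14 peaks lay in this gap. The wild-type cluster ran from 29102865 to 29108521, a span of 5657 bp or 42.2% of the gap, and the knockout cluster spanned 3620 bp inside it. The wild-type cluster began 2143 bp past the end of Cdkn1a, which is transcribed towards it, and ended 5607 bp before the near end of Rab44. In knockout the distances were 3232 bp and 6555 bp. The bodies of Cdkn1a and Rab44 held 0 peaks in all 4 tables, as did the other genes of the window, namely Cpne5, which encodes a calcium-binding copine, and the pseudogenes Rpl35a-ps3 and Gm18271. Trp53cor1, the p53-induced noncoding RNA gene known as lincRNA-p21, lies on the other side of Cdkn1a, just outside the window, and its body was also free of listed peaks. The next H3K9me3 peak on the chromosome lay 2.79 Mb from the window in wild type and 15.4 Mb in knockout. Both lists are sparse, with 173 wild-type and 93 knockout H3K9me3 peaks over the genome. The distances between other clusters were not measured.

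The annotated starts of Cdkn1a lay well away from the cluster. Their promoter windows are shown because p21 is the best known product of the region and H3K9me3 was listed on neither window. The promoter table used here gives no entry for Rab44, whose near end lies closer to the cluster. They run from 250 bases before to 50 bases after each start on the plus strand (RefSeq, GRCm38.p6). The first is chr17:29090729-29091028 and the second chr17:29093519-29093818. Capitals mark the only match to CATGNNNNNNCATG, a pair of CATG cores of the kind found in p53 response elements. This motif reads the same on both strands.
Cdkn1a upstream start: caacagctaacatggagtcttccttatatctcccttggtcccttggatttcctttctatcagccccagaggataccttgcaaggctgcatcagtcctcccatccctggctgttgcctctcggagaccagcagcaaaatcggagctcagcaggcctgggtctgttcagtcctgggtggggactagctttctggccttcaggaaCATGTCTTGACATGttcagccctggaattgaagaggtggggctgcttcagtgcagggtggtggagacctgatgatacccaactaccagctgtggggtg
Cdkn1a downstream start: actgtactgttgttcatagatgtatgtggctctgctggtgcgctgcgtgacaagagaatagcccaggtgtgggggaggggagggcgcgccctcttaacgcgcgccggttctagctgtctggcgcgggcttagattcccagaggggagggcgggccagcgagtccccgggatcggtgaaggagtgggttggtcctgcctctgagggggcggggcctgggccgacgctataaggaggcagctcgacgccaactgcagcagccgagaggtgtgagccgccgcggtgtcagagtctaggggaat
The match began at 29090931, in the window of the upstream start. Of 32851 promoter windows of the same length, 234 or 0.712% held this motif. The window of the downstream start had no match to these letters and held 23 CG dinucleotides, against 2 in the upstream one and a median of 7 over all windows. The first wild-type H3K9me3 peak began 11886 bp past the upstream start and 9096 bp past the downstream one, and the first knockout peak 12975 and 10185 bp past them. Over the whole series 2 promoter windows overlapped a wild-type and 1 a knockout H3K9me3 peak, so a promoter free of listed H3K9me3 was the usual case.

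The second question was how high, wide and closely spaced the wild-type peaks were. Height is given as the pileup at the summit, that is the number of fragments over the summit base, per 1000000 kept tags (FPM). Background is the input level that the peak caller expected at the same base, also in FPM. Fold is the authors' enrichment, pileup plus 1 over background plus 1, both in fragments scaled to the smaller library. It is therefore not the ratio of height to background in FPM. In wild type the 11 heights ran from 0.723 to 1.52 FPM (19 to 40 fragments), with a median of 0.875. The widths ran from 111 to 319 bp with a median of 193 bp, and the peaks covered 2071 bp, or 36.6% of the span of the cluster.

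The 2 widest gaps, 868 and 714 bp, split the wild-type peaks into stretches of 4, 4 and 3. The first stretch, nearest to Cdkn1a, held the highest peak of the cluster, peak 1 (29102865 to 29103183, 319 bp), with 40 fragments, a height of 1.52 FPM (1.09 to 2.07) and a fold of 6.33. Peak 2 (29103305 to 29103512, 208 bp) stood at 0.799 FPM (0.494 to 1.22) with a fold of 4.08. Peak 3 (29103955 to 29104082, 128 bp) reached 34 fragments, 1.29 FPM (0.895 to 1.81), with a fold of 6.49. This narrow peak was thus higher than the wider peak 2 before it, though their intervals overlapped. Peak 4 (29104294 to 29104532, 239 bp) had 30 fragments, 1.14 FPM (0.770 to 1.63), and a fold of 5.75.

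The second stretch held both the best enriched and the 2 least enriched peaks. Peak 5 (29105401 to 29105544, 144 bp) had 30 fragments as well, 1.14 FPM (0.770 to 1.63), but over the lowest background of the cluster, 0.0823 FPM. Its fold of 9.58 was the highest of the cluster and the 6th highest of the 173 wild-type H3K9me3 peaks. Peak 6 (29105874 to 29106066, 193 bp) was the lowest of the cluster, with 19 fragments, 0.723 FPM (0.435 to 1.13) and a fold of 3.71. Peak 7 (29106215 to 29106325, 111 bp), the narrowest, had 20 fragments, 0.761 FPM (0.465 to 1.17) and a fold of 5.53. Peak 8 (29106467 to 29106678, 212 bp) had 23 fragments, 0.875 FPM (0.554 to 1.31), over the highest background of the cluster, 0.247 FPM, and the lowest fold, 3.18. Within this stretch the folds ranked in the reverse order of the backgrounds, which enter the fold as its divisor.

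The third stretch, nearest to Rab44, held 3 peaks of 20 to 26 fragments. Peak 9 (29107393 to 29107539, 147 bp) had 20 fragments, 0.761 FPM (0.465 to 1.17), and a fold of 4.75. Peak 10 (29107752 to 29107987, 236 bp) had 26 fragments, 0.989 FPM (0.646 to 1.45), and a fold of 5.96. Peak 11 (29108388 to 29108521, 134 bp) had 23 fragments, 0.875 FPM (0.554 to 1.31), and a fold of 5.56. Every peak of this stretch was below peaks 1, 3, 4 and 5 in height, with intervals that overlapped theirs.

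Neighbouring wild-type summits were 325 to 1112 bp apart, with a median of 482 bp (n = 10 steps). From the Cdkn1a side the steps were 487, 579, 340 and 1112 bp, then 477, 325, 327 and 897 bp, and finally 404 and 561 bp. The spacing was uneven, and the empty bases between listed peaks numbered 121 to 868. The peak caller joins sites that lie within one tag length, 100 bp, so gaps shorter than that cannot appear. It also drops sites shorter than its own fragment length, which was 97 bp for the wild-type and 98 bp for the knockout library. Both lengths are below the tag length of 100 bp, so they are lengths the caller used and not measured fragment sizes. The fragments counted here are tags given that length.

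**Figure D1:**
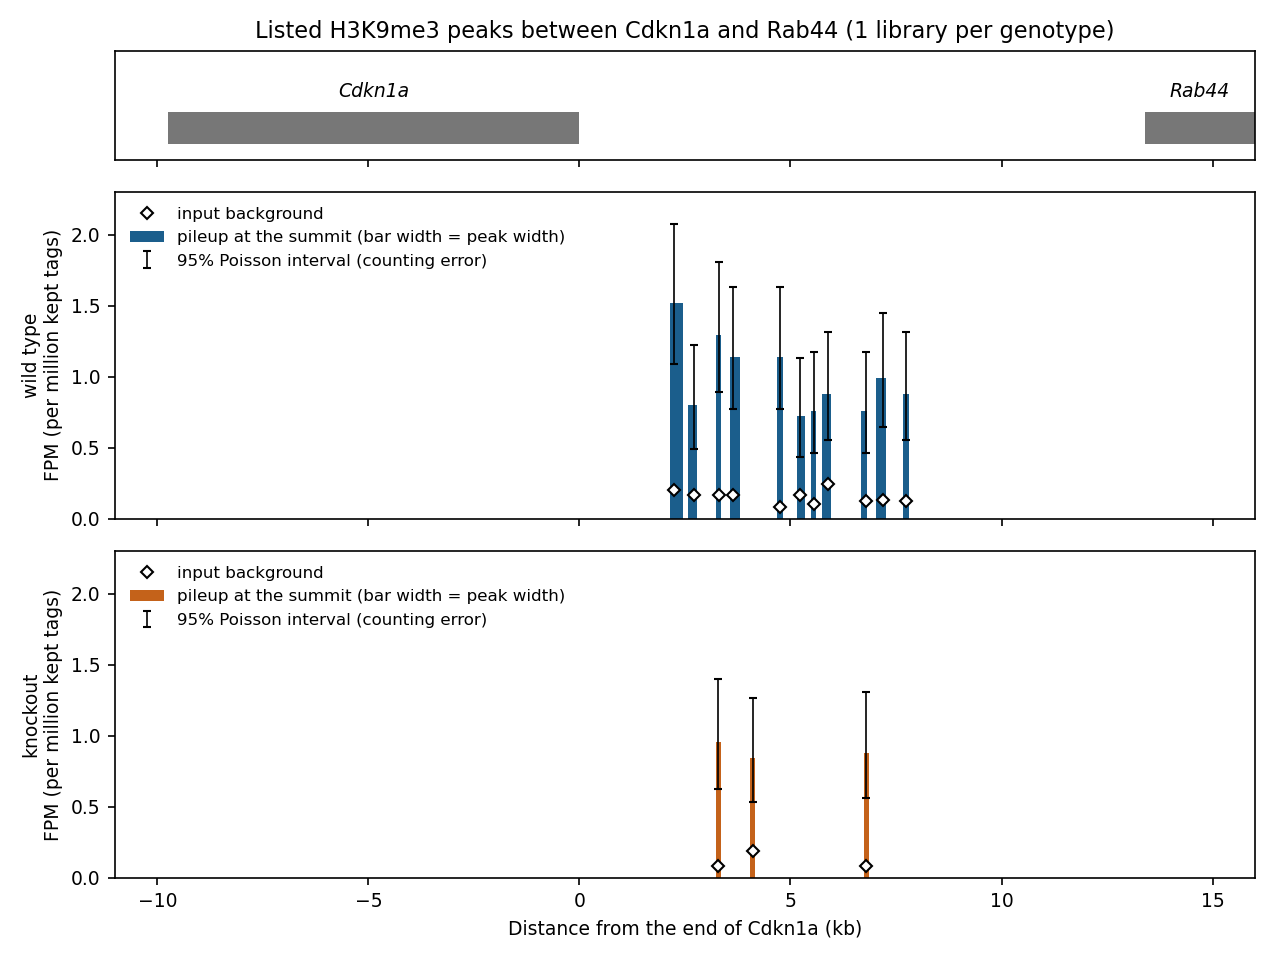
Pileup at the summit in FPM (bars, as wide as the peaks) with 95% Poisson intervals, and input background (diamonds), against the distance from the end of Cdkn1a in kb. The 11 wild-type peaks lie in the gap between the genes with 0 in either gene body, and the 3 knockout peaks sit within the same span at heights of 0.843 to 0.953.

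The third question was which of these sites were also listed in knockout cells. Knockout peak 1 (29103954 to 29104071, 118 bp) had 26 fragments, 0.953 FPM (0.622 to 1.40), and a fold of 8.08. Knockout peak 2 (29104759 to 29104889, 131 bp) had 23 fragments, 0.843 FPM (0.534 to 1.26), and a fold of 3.88. Knockout peak 3 (29107453 to 29107573, 121 bp) had 24 fragments, 0.879 FPM (0.563 to 1.31), and a fold of 7.69. The 3 heights were close to each other and fell inside the wild-type range. Of the wild-type peaks 4 were lower than the knockout range, 2 within it and 5 above it. Only the interval of wild-type peak 1 (1.09 to 2.07) lay wholly above the highest knockout value, 0.953 FPM. It still overlapped the interval of that value, 0.622 to 1.40. The knockout summits were 824 and 2695 bp apart, and the peaks covered 370 bp.

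Overlap joined 2 of the 3 knockout peaks to a wild-type peak. Of the 11 wild-type peaks 9 had no overlapping knockout peak, against 61.8% of all 173 wild-type H3K9me3 peaks, and of the 3 knockout peaks 1 had no overlapping wild-type peak, against 28% of all 93. The members were picked by these numbers, so nothing is read from that contrast. Wild-type peak 3 and knockout peak 1 shared 117 bp, with summits 19 bp apart. Wild-type peak 9 and knockout peak 3 shared 87 bp, with summits 22 bp apart. Knockout peak 2 fell into the 868 bp gap after wild-type peak 4, 226 bp from its end. The 9 wild-type peaks without an overlap lay 178 to 1127 bp from the nearest knockout peak, and the second stretch of 4 peaks held none. Within 1000 bp of a knockout peak lay 10 of the 11 wild-type peaks, but this reach takes in 88.5% of the wild-type span. With peaks within 300 bp merged, the numbers were 6 wild-type and 3 knockout sites. Merging at wider distances was not run. The wild-type gaps were at most 868 bp and the knockout gaps 687 and 2563 bp, so the counts depend on that distance.

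At the 2 overlapping sites the heights did not differ beyond counting error. The knockout over wild-type ratio of height was 0.737 (0.425 to 1.26) at wild-type peak 3, where 34 fragments faced 26. At wild-type peak 9 it was 1.16 (0.612 to 2.21), with 20 fragments against 24. The summed fragments, 54 in wild type and 50 in knockout, gave a ratio of 0.892 (0.595 to 1.34), so a drop of height to 0.595 or a rise to 1.34 is within these limits. Over all 66 overlapping wild-type H3K9me3 peaks the median ratio was 0.900, and 71.2% were lower in knockout. The ratio of the authors' folds was 1.25 and 1.62, above 1 at both sites, where the knockout background was the lower one.

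For the 9 sites listed in wild type alone the knockout table holds no height, so they were not compared with knockout. They entered the wild-type list by being high there, and the window was picked for their number. The lowest entry of the knockout list had a −log10 p of 6.93, and that of the wild-type list 5.85. These are the weakest rows listed and not the caller's cutoff, since the knockout entry had a −log10 q of 1.997, past what the q cutoff of 0.05 asks. Wild-type peaks 6 and 8, with −log10 p of 6.61 and 6.41, scored below every listed knockout peak, and the other 9 at or above the lowest one.

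The input background is known at the 14 summits, and there it was above the genome mean, below which the caller lets no background fall. In wild type the background ran from 0.0823 to 0.247 FPM, 1.59 to 4.76 times the genome mean that the caller uses as its floor, with a median of 3.17 times. In knockout it was 0.0848, 0.189 and 0.0815 FPM for peaks 1, 2 and 3, or 1.62, 3.60 and 1.55 times the floor. For wild-type peaks 1 to 4 the values were 0.206, 0.165, 0.165 and 0.165 FPM. They were 0.0823, 0.165, 0.104 and 0.247 for peaks 5 to 8, and 0.128, 0.132 and 0.123 for peaks 9 to 11. Peaks 2, 3, 4 and 6 had the same background, and their heights ran from 0.723 to 1.29 FPM with overlapping intervals.

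Few input reads stood behind most of these values. The caller takes the highest of the input level at the base itself, over 1 kb, over 10 kb and over the genome. In wild type 8 of 11 backgrounds were whole numbers of fragments (within 0.01), between 2 and 6, which is what the base itself gives. The other 3, at peaks 7, 9 and 10, equal 26, 32 and 33 input tags in 1 kb, or 260, 320 and 330 in 10 kb. In knockout peak 2 had 5 fragments, peak 1 equals 229 input tags in 10 kb, and peak 3 equals 220 in 10 kb or 22 in 1 kb. At the overlapping sites the background ratio of knockout over wild type was 0.515 and 0.638, and over all 66 overlapping H3K9me3 peaks the median was 0.924, with 53% lower in knockout. The first of these ratios sets 4 wild-type fragments at 1 base against a 10 kb mean in knockout. The second may also set windows of unlike length against each other, since both of its levels can be read as 1 kb or 10 kb. Because the caller keeps the highest level, the 10 kb around wild-type peak 5 held at most 206 input tags, or 8.48 per 1000000 kept input tags. The 10 kb around knockout peak 1, at 229 tags, held 8.65 per 1000000, and those around knockout peak 3 at most 220 tags, or 8.31 per 1000000. The wild-type limit lay between these values, and the windows are not centred on the same base.

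Against the rest of their lists the members were low peaks over low input. The median wild-type height of 0.875 FPM compared with 1.14 over all 173 wild-type peaks, and the median background of 0.165 with 0.206. Of the 11 wild-type members 2 were above the list's median height, 2 equal to it and 7 below. In knockout all 3 members were below the list medians of height (2.09 FPM) and background (0.416 FPM). The median fold of the members was 5.56 in wild type against 5.01 for the list, and 7.69 in knockout against 4.51. Median widths of members and list were 193 and 161 bp for wild type, and 121 and 160 bp for knockout.

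**Figure D2:**
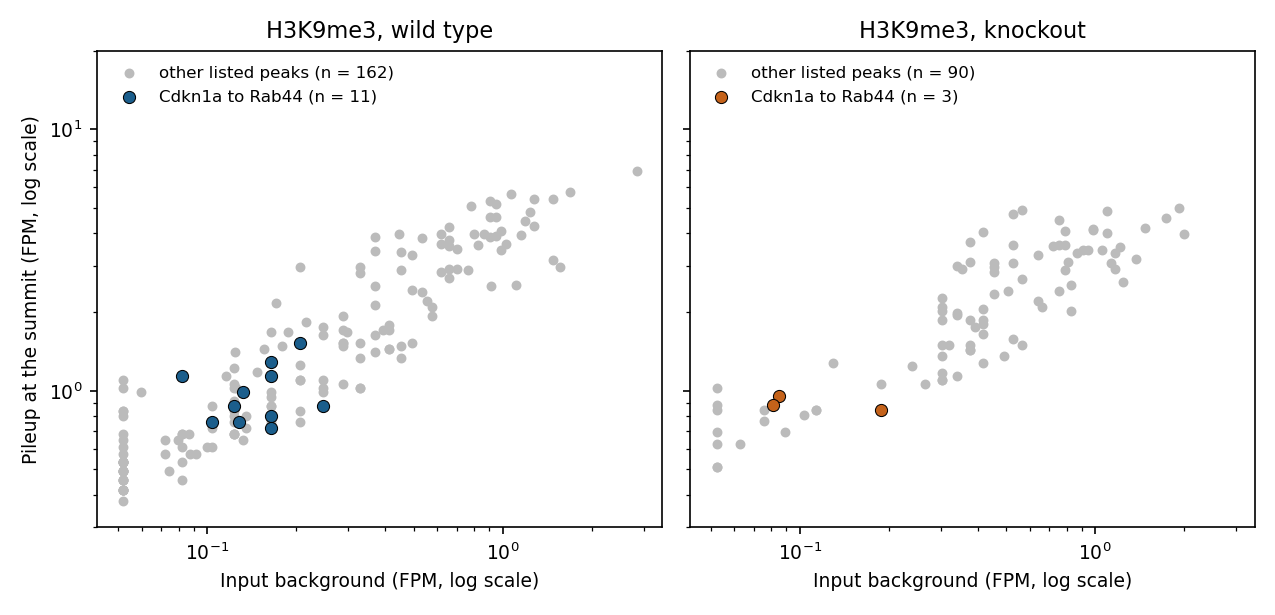
Pileup against input background, both in FPM on log scales, for all listed H3K9me3 peaks of wild type (left) and knockout (right). The members (coloured) sit at the lower left, with backgrounds from 0.0823 to 0.247 in wild type and from 0.0815 to 0.189 in knockout.

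The fourth question was which other H3K9me3 clusters had a similar make-up. Merging the peaks of both genotypes within 10 kb gave 96 groups, 62.5% of them with more wild-type than knockout peaks. Of the 13 groups with at least 5 peaks, 69.2% had more in wild type. The Cdkn1a to Rab44 group was 4th in total number, with 78.6% of its 14 peaks from wild type. Nearest in wild-type share were the group at Duxf3, a repeated homeobox gene, on chromosome 10 (13 and 6 peaks, 68.4%), and one over the predicted genes Gm51573 and Gm51591 to Gm51594 on chromosome 8 (9 and 1, 90.0%). They were followed by the group in Smo, the Hedgehog signal transducer (3 and 2), and one on the Y chromosome at 259062 (3 and 2), both at 60.0%. Median summit spacing in wild type was 1005 bp at Duxf3, 2332 bp at the chromosome 8 group, 386 bp in Smo and 2218 bp on Y. Of these, Smo was the one with a closer spacing than the 482 bp between Cdkn1a and Rab44. The Smo and Y medians rest on 3 wild-type peaks each. Over all 13 groups the 482 bp ranked 4th closest, after the groups near Tmem125 (358 bp) and Zfp825 (384 bp) and the one in Smo.

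The groups with the highest wild-type shares were also those with the lowest input backgrounds and the lowest peaks. The median wild-type background was 3.17 times the genome mean in the Cdkn1a to Rab44 group. It was 2.38 times in the chromosome 8 group named above and 2.001 times in another chromosome 8 group, over Gm51571 and Gm51572, with 5 wild-type peaks and 0 in knockout. These 3 groups had both the 3 highest wild-type shares and the 3 lowest backgrounds of the 13. Their median wild-type heights, 0.875, 0.761 and 0.723 FPM in the same order, were the 3 lowest as well. The 4 groups with equal numbers in both genotypes, in or near Sfi1, Zfp825, Tmem125 and Gm39469, had medians of 13.3 to 21.4 times. The part of the input level or of the peak height in the difference between the lists was not tested.

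**Figure D3:**
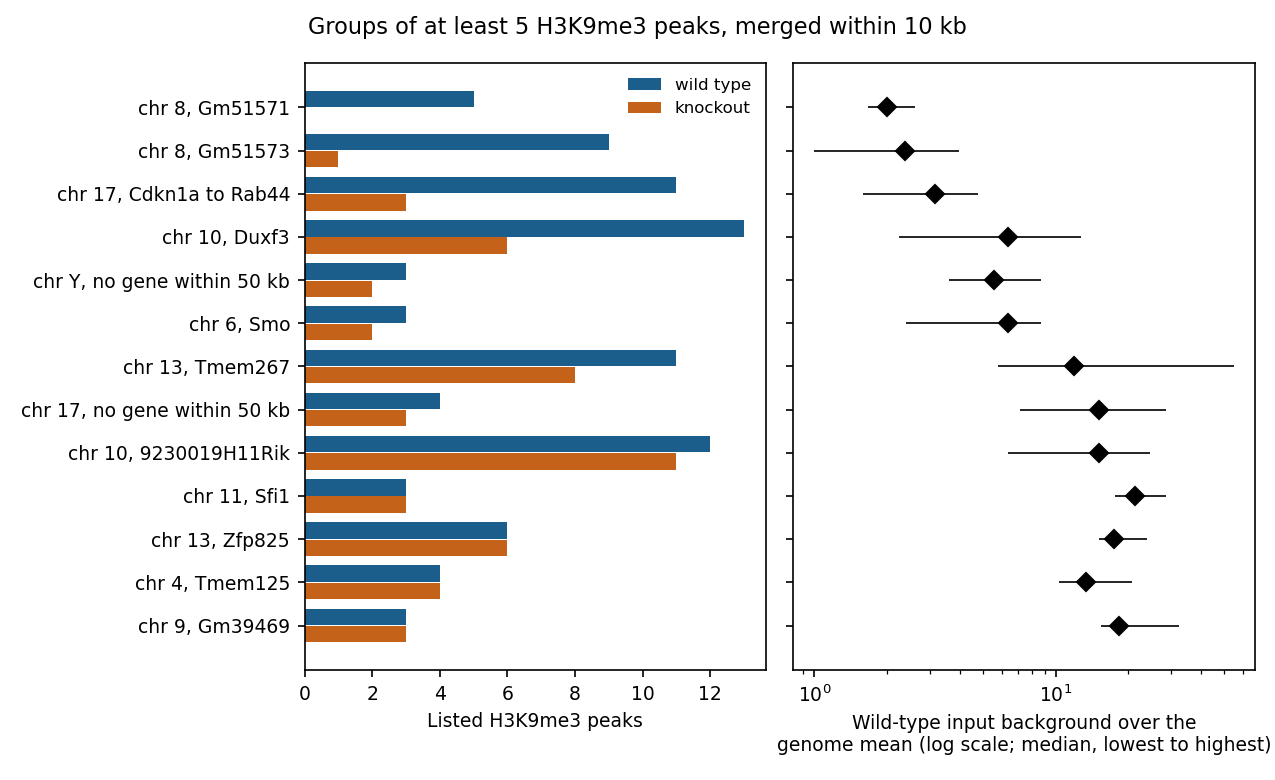
Left, listed H3K9me3 peaks of each genotype in the 13 groups of at least 5 peaks, ordered by wild-type share and named by a protein-coding gene where one lies in them or within 50 kb. Right, the wild-type input background over the genome mean (log scale, median with lowest to highest), which is 3.17 between Cdkn1a and Rab44 and 13.3 to 21.4 in the 4 groups with equal numbers.

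The PEG3 antibody gave no listed signal in the neighbourhood. The nearest PEG3 peak on chromosome 17 lay 5900454 bp from the window in wild type and 5900687 bp in knockout, at 35059434 to 35060088 and 35059667 to 35059868. The lowest entries of these tables had 11 fragments (0.514 FPM) in wild type and 9 (0.530 FPM) in knockout. They are the weakest rows listed anywhere and not the limit in this window, which depends on the local background. Binding between Cdkn1a and Rab44, also above these values, may therefore have gone unlisted.

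Other genes of the p53 and cell cycle pathway were almost free of listed peaks. Of 28 such genes, among them Trp53, Mdm2, Cdkn1b, Cdkn2a, Ccnd1, Cdk4 and Rb1, 0 had an H3K9me3 peak within 10 kb in either genotype. Over all 21900 protein-coding genes this was so for 0.247% in wild type and 0.128% in knockout, so a count of 0 is near what the lists give for any genes. One of the 28, Bbc3, which encodes the pro-apoptotic p53 target PUMA, held a PEG3 antibody peak in wild type (chromosome 7, 16312758 to 16313014, 17 fragments, 4.94-fold), and 0 of the 28 had one in knockout. A PEG3 peak lay within 10 kb of 0.644% of all protein-coding genes in wild type and of 0.347% in knockout, so 1 gene of 28 is too few to set against them. Of 9 genes of the Rab family, including Rasef and Cracr2a, the other large Rab GTPases, 0 had a peak of either antibody in either genotype.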

How the data were processed

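The authors aligned reads to mm10 with Bowtie2 and processed them with SAMtools (versions not given in the sources used here), per the submitters' processing notes. Per the file headers, MACS2 2.2.6 was run by the authors on every ChIP library with the matching genotype's input as control (q cutoff 0.05). One raw input file per genotype served both antibodies, per the labels. Each row of the deposited tables holds a summit pileup signal, the fold (pileup plus 1, divided by local background plus 1), and −log10 p and −log10 q, whose column names were lost and which were identified by position. Per the file headers, the authors scaled the larger of ChIP and input down to the smaller.

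Fragments were recovered as pileup divided by the ChIP scale (0.924 in wild type, 0.970 in knockout H3K9me3) and background from pileup and fold. Recomputing −log10 p from them with a Poisson distribution gave differences of at most 0.00335. Height intervals are exact Poisson and ratio intervals exact conditional ones. Peaks overlapped if they shared at least 1 bp. The functions were tested on simulated peaks. Genes came from RefSeq (GRCm38.p6), which gives no exons. Every peak and gene of the window is named, and other groups were named by nearness in wild-type share. The members and lists were chosen with earlier results of these data known. The alternatives tried were other flanks, q thresholds, merging, overlap rules and scalings. The software was Python 3.11.15 with pandas 2.3.3, NumPy 2.4.6, matplotlib 3.10.9 and SciPy 1.17.1.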

Additional observations from a re-analysis of the deposited data

How the results depend on the processing

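Of 23 alternatives over 8 results, 17 left the value as it was or near it and 6 moved it further. The rule for near was wide. A count could differ up to a set factor, so that 9 peaks were near 11. Other values had to lie within the interval or range of the main value, which was 0.595 to 1.34 for the height ratio. With peaks within 300 bp merged, the cluster held 6 wild-type and 3 knockout sites, and the merged wild-type sites had a median width of 586.5 bp and a median spacing of 1129 bp. Sharing rose from 2 wild-type peaks to 4 with a gap of at most 300 bp and to 10 with at most 1000 bp. The knockout over wild-type height ratio was 0.892 from summed fragments. The median ratio of the authors' folds at the same sites was 1.43, but that measure also holds the background and is not a ratio of heights. The wild-type count was 9 at a q of 0.01 or 0.001 and, in an alternative chosen after seeing the data, at the lowest listed knockout score, while the knockout count stayed at 3. Flanks of 0 and 50 kb gave the same counts, but these could not move. All 14 peaks lay in the gap, and the nearest listed peak outside the window was 2.79 Mb away. The knockout count could not move with the q thresholds or the merging either. Its lowest −log10 q was 3.32 and its gaps were 687 and 2563 bp. The unchanged values of these alternatives therefore say nothing on how stable the counts are. No paired analysis was possible because each group has 1 library. The wild-type heights rest on 19 to 40 fragments each and the knockout heights on 23 to 26.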
